A study of Homo sapiens with 4 samples.

Results

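The TIMM and TOMM genes encode translocases of the inner and outer mitochondrial membrane, and their transcripts were followed in the human colon carcinoma line HCT116, which was grown as multicellular spheroids (MCS) or as monolayers. A gene was a member when a probe set annotated with its symbol alone carried a TIMM or TOMM name followed by a number. This gave 22 of the 19775 genes represented on the array, 15 TIMM and 7 TOMM genes, with 41 probe sets. Each gene was read from its brightest probe set over the 4 arrays. The samples were 2 independent spheroid cultures and 2 independent monolayer cultures of the same line, all untreated, each on its own Affymetrix U133 Plus 2.0 array. The spheroids were used in the study as a model of poorly supplied, slowly dividing tumour cells. Each array pooled a whole culture, so the rim and the core of a spheroid were not separated, and fewer cells expressing a gene cannot be told apart from less RNA of that gene per cell.

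Nearly all mitochondrial proteins are made in the cytosol and have to cross or enter the mitochondrial membranes. They pass the outer membrane through the TOM complex, whose receptors bind targeting signals and whose channel is TOMM40. Proteins with a cleavable presequence then follow the TIM23 complex into the matrix, where a motor built around the chaperone HSPA9 pulls them in. Metabolite carriers and other multispanning proteins are instead escorted across the intermembrane space by small TIMM chaperones and inserted by the TIM22 complex.

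The arrays had been scaled to one total, with a trimmed mean of 500.1 units on each. Log2 values correlated across genes at 0.979 between the spheroid arrays and 0.984 between the monolayer arrays, and at 0.889 to 0.902 between culture types. The epithelial marker EPCAM had signals of 25873 and 29021 in spheroids and 27044 and 27171 in monolayers, and all 6 epithelial markers examined were above 300 units in their mean. Not all of the 6 were level between culture types. In the comparison described below, CLDN4, CDH1 and KRT19 were called higher in spheroids (log2 differences 2.73, 1.73 and 0.79). EPCAM (0.02), KRT18 (-0.11) and KRT8 (-0.49) were not called. Of 9 fibroblast, leukocyte and endothelial markers with a probe set, 8 stayed at or below 199 units on every array. The exception was COL1A1, with signals of 2222 and 2659 in spheroids against 869 and 658 in monolayers. The summed signal of the fibroblast markers was 2328 to 2716 in spheroids and 769 to 1041 in monolayers, that of the leukocyte markers 70.1 to 132 and 52.4 to 76.2, and that of the endothelial markers 130 to 135 and 177 to 260. The 3′ over 5′ signal of the ACTB control was 2.82 and 3.0 in spheroids and 2.64 and 2.34 in monolayers. How far COL1A1 or these control ratios bear on the results was not tested.

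Transcripts of the import translocases were lower in spheroids or were not called. Of 20 members above the signal filter (mean of the 4 arrays over 300 units), 13 were lower, 0 were higher and 7 were not called (limma, adjusted p under 0.05 over 8721 genes). Over all genes tested, 20.6% were called lower and 19% higher. No member was higher at an unadjusted p under 0.05 either, while 15 were lower. The shares of all genes just given refer to adjusted p, and shares at the unadjusted threshold were not counted. The median log2 difference, spheroid minus monolayer, was -0.64 over the members and -0.03 over all genes. Both spheroid arrays lay below both monolayer arrays for 15 members, above them for 2, and overlapped them for 3, whereas all genes lay below in 36.6% and above in 33.4%. Among the called members the mean signal was 1.29-fold to 2.72-fold lower in spheroids. There were 9 members among the 10% of genes with the lowest differences (-0.74 or below). The 13 called members and these 9 include TOMM40L, which passed the filter through the monolayers. TIMM17B and TIMM23 had no probe set of their own above 300 units and were not tested.

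**Figure D1:**
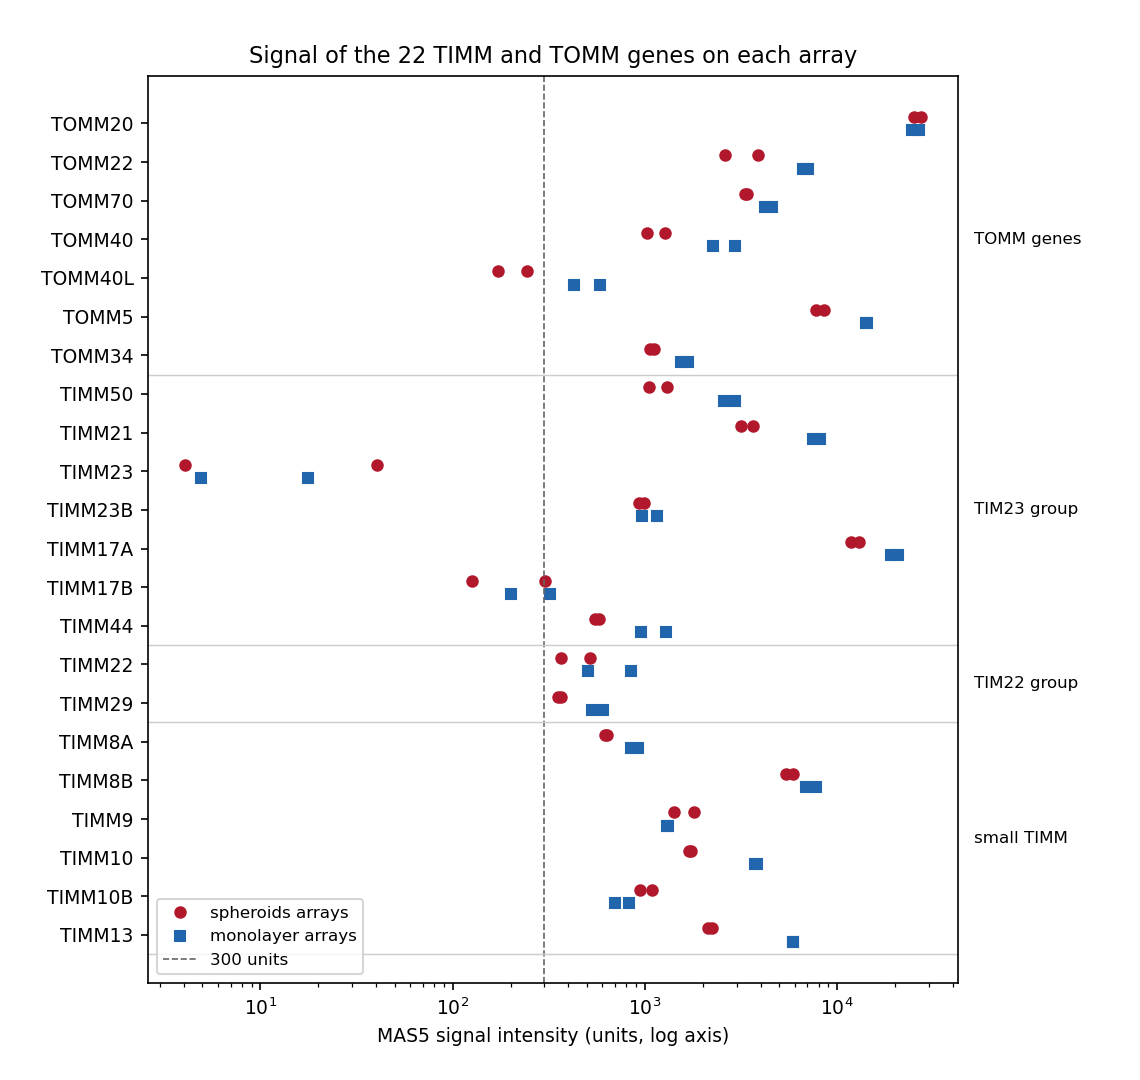
MAS5 signal intensity (x, log axis, in units) of the brightest probe set of each of the 22 genes (y, grouped by complex), with 2 spheroid arrays as red circles above 2 monolayer arrays as blue squares and a dashed line at 300 units. For TIMM13 the spheroid arrays sit at 2227 and 2115 and the monolayer arrays at 5917 and 5903, while for TOMM20 the arrays of both culture types lie between 24466 and 27196.

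These values rest on the scaling of the arrays to equal totals. Spheroid arrays read the added Bacillus controls 1.87-fold brighter, and a scaling on those controls moved the median of all genes to -0.91 and the median of the members to -1.51. The members' median stood -0.61 from the median of all genes, a distance that a factor per array leaves nearly as it was. Calls with spike-in scaling were 16 lower and 0 higher of the 20 members, beside 41.9% lower and 1.80% higher over all genes. The differences given for single genes refer to equal array totals.

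Promoter windows of the members were searched for 4 motifs. RefSeq windows on GRCh38.p14, from 250 bases before to 50 bases after each start, were matched by symbol for 20 of the 22 genes (not TIMM8B and TOMM5). An ETS motif (CCGGAAG, either strand) was present in 10 of these 20 windows, which are 1 per gene. It was present in 10.3% of 35116 promoters of all genes and 19% of 10678 promoters of genes tested. Those promoters belong to 27305 and 7318 genes, some with several, so the shares are not like for like. The windows of TIMM23 and its near-identical copy TIMM23B are both among these 10. It was found for 5 of 11 members called lower and 4 of 7 members tested and not called, so it was present on both sides of the call. The core of the NRF1 motif (CGCATGCG) was in 1 window (2.02% of all promoters), an E-box (CACGTG) in 3 (7.26%) and a cyclic AMP response element (TGACGTCA) in 0 (1.85%). Among promoters of genes tested these shares were 3.76%, 9.97% and 3.01%. Matches of different motifs did not overlap in these windows. The 120 bases before the start are shown, 5′ to 3′ on the strand of the gene, for TIMM13 and TOMM70, which were lower, and for TIMM10B and TOMM20, which were not called, with ETS motifs in capitals.
TIMM13, chr19:2427587-2427706, minus strand: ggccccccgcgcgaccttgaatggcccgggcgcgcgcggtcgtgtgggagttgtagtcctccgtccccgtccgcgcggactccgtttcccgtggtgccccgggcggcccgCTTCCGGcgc
TOMM70, chr3:100401090-100401209, minus strand: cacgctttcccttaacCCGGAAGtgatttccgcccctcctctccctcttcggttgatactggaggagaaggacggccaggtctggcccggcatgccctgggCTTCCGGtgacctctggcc
TIMM10B, chr11:6481381-6481500, plus strand: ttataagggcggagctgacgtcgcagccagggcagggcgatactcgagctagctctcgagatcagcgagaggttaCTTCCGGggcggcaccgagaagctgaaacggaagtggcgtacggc
TOMM20, chr1:235128838-235128957, minus strand: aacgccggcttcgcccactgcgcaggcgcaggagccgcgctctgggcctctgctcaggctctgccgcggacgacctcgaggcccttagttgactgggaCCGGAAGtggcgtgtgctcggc
These 4 were chosen among windows that hold the motif. A match of letters is not evidence that a factor binds there.

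The outer membrane channel and its central receptor were lower. TOMM40, the channel through which precursors cross the outer membrane, had signals of 1269 and 1023 in spheroids against 2947 and 2269 in monolayers. All spheroid values were below all monolayer values, and the log2 difference was -1.16 ± 0.19 (SE, limma adjusted p = 5.23e-04). Its paralog TOMM40L had signals of 244 and 171 in spheroids against 581 and 430 in monolayers (-1.17 ± 0.28, adjusted p = 0.00555). Both genes fell without overlap, TOMM40L on a probe set that passed the filter through the monolayers, its spheroid values being under 300 units. TOMM22, the receptor that organises the complex, had signals of 3887 and 2623 in spheroids against 6633 and 7043 in monolayers (-1.09 ± 0.18, adjusted p = 4.81e-04). Its spheroid cultures were further apart than those of any other member tested (0.56 on the log2 scale), but neither reached the monolayer range. TOMM5, a small subunit of the complex, had signals of 8518 and 7730 in spheroids against 14220 and 14078 in monolayers (-0.80 ± 0.12, adjusted p = 2.88e-04).

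The peripheral receptors changed less or were not called. TOMM70, which receives carrier precursors from cytosolic chaperones, had signals of 3320 and 3414 in spheroids and 4588 and 4214 in monolayers. The arrays did not overlap, but the difference of -0.38 ± 0.14 was close to the threshold (adjusted p = 0.0486). TOMM34, a cytosolic co-chaperone that hands precursors to the import machinery, had signals of 1057 and 1113 in spheroids against 1542 and 1671 in monolayers (-0.55 ± 0.18, adjusted p = 0.0252). The calls of TOMM70 and TOMM34 were lost when any 1 of the 4 arrays was left out, at -0.32 to -0.44 and -0.49 to -0.61. TOMM20, the receptor for presequences, had signals of 25123 and 27196 in spheroids and 24466 and 26515 in monolayers, which overlapped (0.04 ± 0.11, 95% interval -0.19 to 0.27, adjusted p = 0.805). The other TOMM20 probe set gave 14973 and 14058 units in spheroids and 8995 and 8625 in monolayers, a difference of 0.72. As the mean of both probe sets TOMM20 was called higher (0.38, adjusted p = 0.0147), so its level depends on the probe set read. With spike-in scaling the sign of the brighter probe set turned (-0.87).

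**Figure D2:**
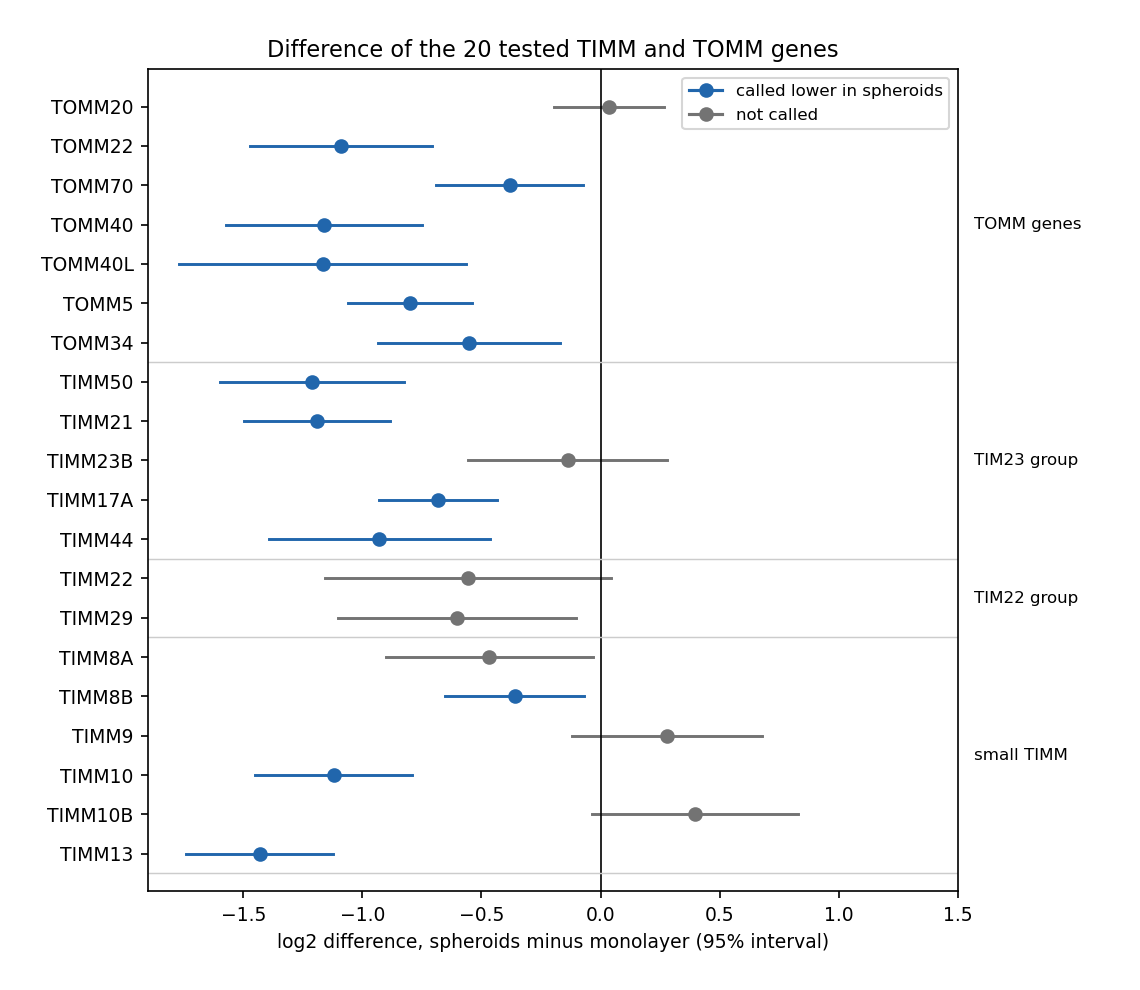
Log2 difference, spheroids minus monolayer (x), of each of the 20 tested genes (y, grouped by complex), with points for the limma estimate from 2 arrays per group and lines for its 95% interval, in blue for genes called lower and in grey for the others. The 13 called genes run from -1.43 for TIMM13 to -0.36 for TIMM8B, and TOMM20, TIMM9 and TIMM10B lie right of 0 without being called; with spike-in scaling these 3 lie left of 0 (-0.87, -0.61 and -0.48).

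Presequence translocase genes were lower for 4 of 5 tested. TIMM50, the inner membrane receptor that takes over presequences from the TOM complex, had signals of 1308 and 1045 in spheroids against 2941 and 2578 in monolayers. That was a 2.35-fold lower mean (-1.21 ± 0.18, limma adjusted p = 2.48e-04). TIMM21, which docks the TIM23 complex to TOM and to respiratory chain complexes, had signals of 3157 and 3644 in spheroids against 7449 and 8130 in monolayers (-1.19 ± 0.14, adjusted p = 5.69e-05). TIMM44, which tethers the HSPA9 motor to the channel, had signals of 550 and 578 in spheroids against 1279 and 950 in monolayers (-0.93 ± 0.21, adjusted p = 0.00450). Here the monolayer arrays were the ones apart, and without monolayer replicate 1 the call was lost (-0.72, adjusted p = 0.0538). TIMM17A, a core subunit of the channel, had signals of 11796 and 12906 in spheroids against 19115 and 20583 in monolayers (-0.68 ± 0.11, adjusted p = 6.14e-04).

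The channel gene TIMM23 could not be read by itself. Its own probe set gave 40.5 and 4.05 units in spheroids and 17.7 and 4.89 in monolayers, close to the 4.47 to 35.0 units of unspiked bacterial controls. TIMM23B, a near-identical copy, had signals of 986 and 931 in spheroids and 966 and 1158 in monolayers, which overlapped (-0.14 ± 0.19, 95% interval -0.56 to 0.28, adjusted p = 0.60). Another 3 probe sets were annotated to both TIMM23 and TIMM23B and cannot be given to either. Their signals were 5778, 2932 and 1752 in spheroid replicate 1 and 4936, 2537 and 1892 in spheroid replicate 2. In monolayer replicate 1 they were 9037, 4683 and 2715, and in monolayer replicate 2 they were 9541, 4219 and 3298. All 3 were thus below the monolayer range in spheroids, by -0.79, -0.70 and -0.71 on the log2 scale, whereas the TIMM23B probe set alone overlapped. TIMM17B, the second form of the TIMM17 subunit, had signals of 303 and 126 in spheroids and 322 and 201 in monolayers, which overlapped below the filter.

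Neither gene of the carrier translocase was called. TIMM22, its channel subunit, had signals of 516 and 364 in spheroids and 844 and 504 in monolayers, with overlap and the largest gap between monolayer arrays among the members tested (0.71). The difference was -0.56 ± 0.28 (95% interval -1.16 to 0.04, limma adjusted p = 0.129). Leaving out single arrays gave -0.91 (monolayer replicate 2), -0.79 (spheroid replicate 1), -0.32 (spheroid replicate 2) and -0.20 (monolayer replicate 1). TIMM22 was called lower in 3 of 13 alternatives that gave it a value, among them the fit lacking monolayer replicate 2. Its other probe set above 300 units overlapped (-0.19), and the mean of both probe sets was not called (-0.37, limma adjusted p = 0.273). TIMM29, a subunit that holds the complex together and links it to TOM, had signals of 367 and 354 in spheroids and 603 and 529 in monolayers. The arrays did not overlap, and at -0.60 ± 0.23 it was just outside the threshold (adjusted p = 0.0541). TIMM29 was called lower in 5 of 14 alternatives, among them quantile normalization (-0.76, adjusted p = 0.0195), means of probe sets (0.0427) and no intensity trend (0.0246). Both genes had low signals, where the standard errors were wider than for most members.

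Small TIMM chaperones of the intermembrane space differed among themselves. These proteins work as mixed rings, TIMM9 with TIMM10 and TIMM8A with TIMM13. TIMM13 had signals of 2227 and 2115 in spheroids against 5917 and 5903 in monolayers. With replicates this close, its difference of -1.43 ± 0.14 (limma adjusted p = 1.57e-05) was the largest of the members and ranked 37 among the decreases of all 8721 genes. Its partner TIMM8A, the gene mutated in the human deafness-dystonia syndrome, had signals of 621 and 635 in spheroids and 847 and 917 in monolayers, without overlap but not called (-0.47 ± 0.20, 95% interval -0.90 to -0.03, adjusted p = 0.0824). TIMM8B, a paralog of TIMM8A, had signals of 5917 and 5428 in spheroids against 6842 and 7749 in monolayers (-0.36 ± 0.13, adjusted p = 0.0497). This call was at the threshold and was kept in 4 of 14 alternatives. Among others, it was lost without spheroid replicate 1 (-0.42), spheroid replicate 2 (-0.30) or monolayer replicate 2 (-0.27).

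TIMM10 and TIMM9, partners in one ring, had signals on opposite sides of the monolayer values. TIMM10 had signals of 1743 and 1689 in spheroids against 3819 and 3723 in monolayers (-1.12 ± 0.15, limma adjusted p = 1.40e-04). TIMM9 had signals of 1805 and 1420 in spheroids and 1302 and 1326 in monolayers. Both spheroid arrays were above the monolayer arrays, but the difference of 0.28 ± 0.18 was not called (95% interval -0.12 to 0.68, adjusted p = 0.249). The 95% intervals of TIMM10 (-1.45 to -0.79) and TIMM9 did not meet; the difference between the genes was not tested. TIMM10B, which associates with this ring at the TIM22 complex, had signals of 1082 and 945 in spheroids and 701 and 826 in monolayers, above without overlap but not called (0.40 ± 0.20, adjusted p = 0.135). Its other probe set above 300 units overlapped, with 640 and 726 in spheroids and 606 and 739 in monolayers (0.02). As the mean of both probe sets TIMM10B was at 0.21 (limma adjusted p = 0.388). With spike-in scaling TIMM9 and TIMM10B were at -0.61 and -0.48, also not called.

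Probe sets of the same gene mostly gave like values. There were 11 members with several probe sets above 300 units, and within each of the 11 the differences had one sign. The median gap between them was 0.15 on the log2 scale and the largest 0.68, for TOMM20, followed by 0.37 for TIMM10B. For the 8 called members among them, all 16 probe sets had both spheroid arrays below both monolayer arrays. The brightest probe set of each gave the call, so its side was set by that choice and only the other probe sets add to it. Of all 31 member probe sets above 300 units, 23 lay below in this way, beside 36.6% of all genes on their brightest probe set. TIMM21 gave -1.19 and -1.24, TIMM44 gave -0.93 and -0.83, and TIMM17A gave -0.68 and -1.04. The remaining subunits TOMM6 and TOMM7 were represented only by probe sets shared with a neighbouring or unrelated symbol (PRICKLE4 and C4orf46) and were not counted. Both probe sets shared by TOMM6 and PRICKLE4 were lower, at -0.58 and -0.74, and the probe set shared by TOMM7 and C4orf46 was at -0.25, with 17635 and 16245 units in spheroids and 19539 and 20715 in monolayers.

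**Figure D3:**
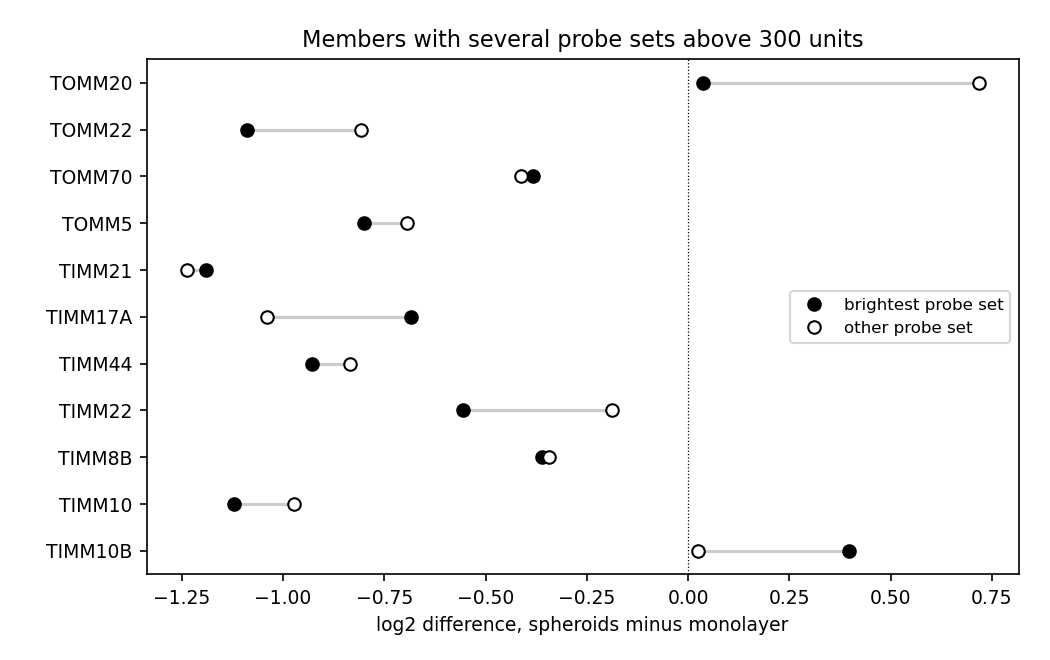
Log2 difference, spheroids minus monolayer (x), of every probe set above 300 units for the 11 members that have several (y), with filled circles for the brightest probe set and open circles for the others, and no error shown. The circles lie close together for most genes, while those of TOMM20 stand at 0.04 and 0.72.

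Genes that act with the translocases were also more often lower than higher. Of 34 import partners, all tested, 18 were lower (52.9%), 2 higher (5.88%) and 14 not called, with a median of -0.49. Over all genes 20.6% were lower and 19% higher, with a median of -0.03. By role, the share lower was 87.5% for the presequence motor and tethers, 75% for oxidative folding and 66.7% for matrix folding. It was 50% for outer membrane sorting, 33.3% for presequence processing and 16.7% for proteases and stress sensors. These groups held 3 to 8 genes each, so single genes move the shares, and none was tested against that over all genes. The last shares cannot be told from it. Among 8 genes of the presequence motor and its matrix tethers, 7 were lower and 0 higher. They included the HSPA9 escort DNLZ (-0.86 ± 0.21), the nucleotide exchange factors GRPEL2 (-0.82 ± 0.18) and GRPEL1 (-0.61 ± 0.14), and the J-like regulator PAM16 (-0.70 ± 0.23). HSPA9 itself, DNAJC19 and ROMO1 were the other called genes, and DNAJC15 was not called. Of 4 genes of oxidative folding and the TIM22 partner, 3 were lower. CHCHD4, the oxidoreductase that folds the small TIMM proteins, had signals of 1470 and 1399 in spheroids against 2306 and 2700 in monolayers (-0.79 ± 0.17, limma adjusted p = 0.00286). AIFM1, which anchors CHCHD4, and GFER, which reoxidises it, differed by -0.71 ± 0.18 and -0.63 ± 0.23.

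Outer membrane sorting, processing and folding genes were split. MTCH2, an insertase of the outer membrane, and the sorting subunits MTX1 and MTX2 were lower (-0.72 ± 0.13, -0.57 ± 0.14 and -0.40 ± 0.15), whereas MTCH1 was higher (0.40 ± 0.12), and SAMM50 and MTX3 were not called. MTCH2 lost its call when its probe sets were averaged (-0.37, adjusted p = 0.0655) and when _x_at and _s_at probe sets were left out (-0.02). The inner membrane insertase OXA1L was not called. Among 6 presequence processing genes, IMMP1L (-0.93 ± 0.19) and PMPCA (-0.53 ± 0.14) were lower and 4 were not called. IMMP1L was at -0.64 as the mean of its probe sets and was not called without _x_at and _s_at probe sets (-0.35, adjusted p = 0.275). Of 3 matrix folding genes, the co-chaperonin HSPE1 (-1.12 ± 0.10) and TRAP1 (-0.48 ± 0.14) were lower. HSPD1, the chaperonin, was not called on its brightest probe set (-0.05), but was lower as the mean of its probe sets (-0.56, adjusted p = 0.00534) and without _x_at and _s_at probe sets (-1.22, adjusted p = 0.00258), so its call turns on the probe set read. Among 6 proteases and stress sensors the protease CLPP was lower (-0.50 ± 0.17) and the kinase PINK1, which accumulates on mitochondria whose import fails, was higher. PINK1 had signals of 982 and 544 in spheroids against 411 and 295 in monolayers (1.01 ± 0.29, limma adjusted p = 0.0151). The spheroid cultures were far apart, and without spheroid replicate 1 PINK1 (0.60) and MTCH1 (0.33) were no longer called. Both also lost their call with spike-in scaling (0.15 and -0.50).

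Of the 20 called partners, 12 lost the call without at least 1 array. Without monolayer replicate 1 these were MTX2 (-0.38), CLPP (-0.40), GFER (-0.41), PAM16 (-0.47) and MTX1 (-0.50). Without monolayer replicate 2 they were DNAJC19 (-0.40), MTX2 (-0.42), ROMO1 (-0.43), PMPCA (-0.48) and AIFM1 (-0.60). Without spheroid replicate 1, besides PINK1 and MTCH1, they were MTX2 (-0.41), PMPCA (-0.50) and ROMO1 (-0.54). Without spheroid replicate 2 they were TRAP1 (-0.36), MTX2 (-0.39), GFER (-0.40), CLPP (-0.40), DNAJC19 (-0.46), ROMO1 (-0.53) and PAM16 (-0.54). GRPEL1, GRPEL2, DNLZ, CHCHD4 and HSPE1 were called in all alternatives that gave them a value.

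Other families of nuclear genes for mitochondrial proteins differed in the share that was lower, beside 20.6% over all genes. Of 75 mitochondrial ribosomal protein genes tested, 53 were lower (70.7%) and 0 higher (median -0.61), and of the members 13 of 20 were lower (65%, median -0.64). Of 41 complex I genes tested, 19 were lower (46.3%) and 0 higher (median -0.40). The SLC25 carriers, which are cargo of the small TIMM chaperones and TIM22, were lower for 8 (25%) and higher for 3 of 32 tested (median -0.21), a share near that of all genes. The members lay close to the mitochondrial ribosomal proteins in both share and median; differences between these groups were not tested.

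**Figure D4:**
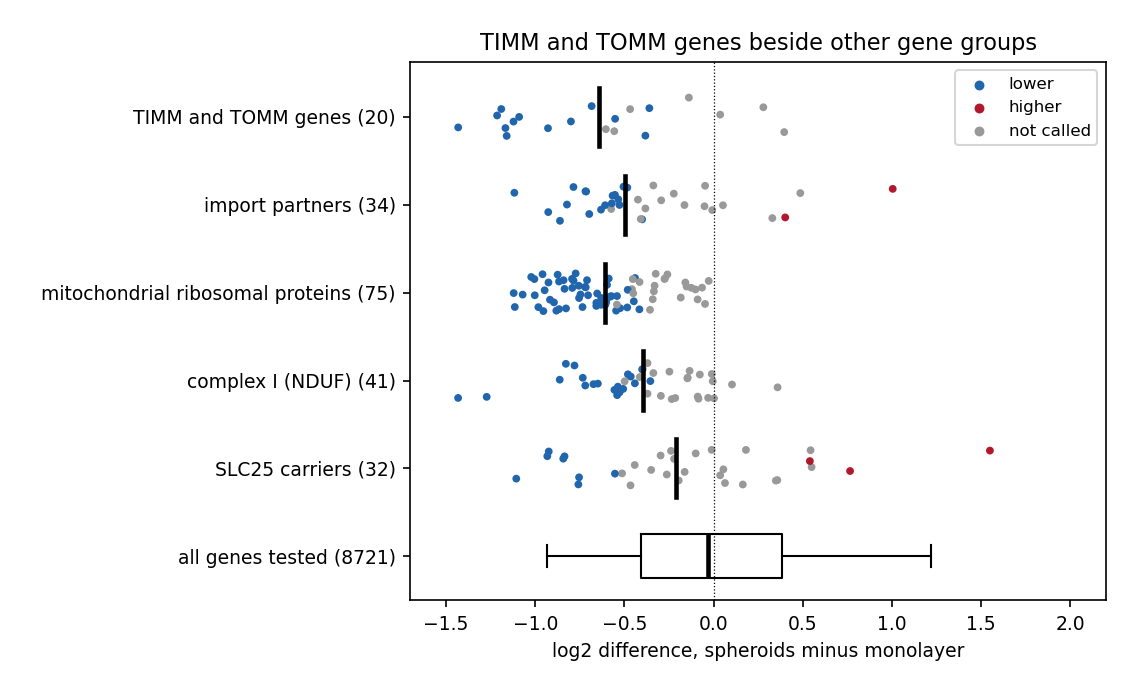
Log2 difference, spheroids minus monolayer (x), of each tested gene in 5 groups (y, number of genes in brackets), in blue if lower, in red if higher and in grey if not called. A black bar marks each group's median. The lowest row is a box plot of all 8721 genes (box 25th to 75th and whiskers 5th to 95th percentile); the medians are -0.64 for the TIMM and TOMM genes, -0.61 for mitochondrial ribosomal proteins and -0.03 for all genes, relative to equal array totals.

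Of 6 regulators of mitochondrial biogenesis tested, 2 were lower (33.3%) and 4 were not called, beside 20.6% lower over all genes. With so few genes this share cannot be told from that over all genes. TFAM, the mitochondrial DNA packaging and transcription factor, had signals of 2163 and 2312 in spheroids against 3898 and 3815 in monolayers (-0.78 ± 0.15, limma adjusted p = 0.00141). The coactivator PPARGC1B had signals of 185 and 331 in spheroids against 503 and 575 in monolayers (-1.02 ± 0.29, adjusted p = 0.0132). It passed the filter through the monolayers, and its call was lost with no signal filter (adjusted p = 0.0772) and without spheroid replicate 1 (-0.65). NRF1, GABPA, ESRRA and MYC were not called, and PPARGC1A did not pass the filter. MYC was at -0.44 ± 0.20 (adjusted p = 0.0966), with -0.80 and a call without monolayer replicate 1 (adjusted p = 6.82e-06) and -0.07 without monolayer replicate 2. Among markers of the culture state, all 6 proliferation markers were lower (median -1.13) and all 5 hypoxia markers tested were higher (median 2.29). Over all genes 20.6% were lower and 19% higher. The part of these states in the levels of the import genes was not tested.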

How the data were processed

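Total RNA from 2 spheroid and 2 monolayer HCT116 cultures was hybridised to Affymetrix U133 Plus 2.0 arrays. Per the labels and the methods, the authors normalised the arrays with MAS5 (version not stated in the sources used here) and deposited the linear intensity of each probe set. Present calls were not used here. Equal array totals remove any change in mRNA per cell.

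Of 54675 probe sets, 62 were controls. Of the others, 41091 had 1 symbol in the platform annotation, 1801 had several and 11721 were unnamed here. Only those with 1 symbol were used, and matching to RefSeq gene identifiers (GRCh38.p14) changed 0 symbols. Groups and replicate numbers came from the sample titles. The brightest probe set per gene was kept if its mean over the 4 arrays exceeded 300 units, after the study's expression threshold. The scale was log2 of signal plus 32, a constant that shrinks the differences of dim genes. The comparison was made in R 4.3.3 by limma 3.58.1 (lmFit, then eBayes allowing a trend with intensity), two-sided, with Benjamini-Hochberg adjustment over 8721 genes. The fit had 2 residual degrees of freedom plus 10.5 from the prior, and the median standard error was 0.19. The number of arrays limits the precision. The fit was tested on simulated data.

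Members and gene lists were chosen with earlier results of these data known. All members were named, and among partners up to 4 called genes per role were given values. Members are described by counts and medians, with no test over the list. Protein sequences were not analysed here. Alternatives changed the filter, the constant, the scaling, the trend and the choice of probe sets, added the replicate number as a block, or left out each array in turn.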

Additional observations from a re-analysis of the deposited data

How the results depend on the processing

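With 2 arrays per group, the precision is limited by their number, and with 1 array left out the lone array of its group was assumed to vary like the other group. TIMM10, TIMM13, TIMM17A, TIMM21, TIMM50, TOMM5, TOMM22, TOMM40 and TOMM40L (9 of the 13) were called lower in all of the 14 alternatives that gave them a value. Without 1 array the members' median ran from -0.66 to -0.75, and that of all genes from -0.01 to -0.05. Members called lower numbered 11 with no signal filter (of 22) or a filter at 100 units (of 21), beside 6.66% and 15.7% of all genes. They numbered 12 with a constant of 16 (20.6% of all genes) or without an intensity trend (17.5%). They numbered 13 with a constant of 64 (20.6%), quantile normalization (20.4%) or means of probe sets (19.5%). These were not always the same genes. Of the main 13, 11 stayed lower with quantile normalization or no intensity trend, and 12 with means of probe sets. TIMM8B was lost in each of these, and TOMM70 in all but the last. TIMM29 was gained in each, and TIMM8A with quantile normalization. Of the 13 that remained without _x_at and _s_at probe sets, 6 were lower, where 1114 of 6094 genes were lower. TIMM8B and TOMM70 lost their calls with no filter (adjusted p = 0.106 and 0.0803). With spike-in scaling, counts over all genes were 157 higher and 3656 lower against 1656 and 1799, the members' median was -1.51, and TOMM20 (-0.87), TIMM9 (-0.61) and TIMM10B (-0.48) changed sign. Without 1 array TOMM20 ran from -0.021 (monolayer replicate 1; -0.020 for spheroid replicate 2) to 0.095. With means of probe sets 1 member, TOMM20, was higher. Partners called higher numbered 0 with no signal filter or spike-in scaling, 1 without a trend (PINK1), 0 to 2 without 1 array, and 1 without _x_at and _s_at probe sets, against 2 (PINK1 and MTCH1). That last gene was YME1L1 (0.43, adjusted p = 0.0129, against -0.29 and not called), and PINK1 and MTCH1 had no value there.

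Same-numbered arrays deviated together (correlation 0.32 across genes), but the labels tie the numbers to nothing shared. With the replicate block 16 members were lower and 0 higher, with TIMM8A, TIMM22 and TIMM29 added, and over all genes 2301 were lower and 2114 higher.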
